A study of Homo sapiens with 4 samples.

Results

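The inflammatory caspases and the genes of the inflammasome were read with and without interleukin-1β (IL-1β) in MIA PaCa-2, a long-established human pancreatic carcinoma line. The 10 genes, out of 18665 with a named probe on the array, were CASP1, CASP4, CASP5, PYCARD, NLRP1, NLRP3, NLRC4, AIM2, GSDMD and IL18, and every probe that the array's probe-to-gene table assigns to them was taken, 19 in all. Control cells received no cytokine and treated cells received IL-1β at 2 ng/ml, both for 36 h, in high-glucose DMEM with fetal bovine serum. Each group had 2 samples with 1 Illumina WG-6 v3 bead chip array each. The labels do not say whether the samples of a group were separate cultures, so the p-values cover only the scatter of these 4 samples and that scatter may be technical. A single cell line was used. In RNA from whole cultures, fewer cells that express a gene and less RNA per cell cannot be told apart.

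An inflammasome is a cytosolic platform in which a sensor such as NLRP3, NLRC4, NLRP1 or AIM2 recruits the adaptor PYCARD (also called ASC) and, through it, pro-caspase-1. Active caspase-1 cleaves the precursors of IL-1β and IL-18 and the pore-forming protein gasdermin D, and caspase-4 and caspase-5 cleave gasdermin D after they bind intracellular lipopolysaccharide. Most of this machinery is regulated by protein assembly and cleavage, which a measurement of RNA does not read. In epithelial cells IL-18 precursor is known to be made without stimulation, while many sensors are best known from myeloid cells. The comparison asks how the RNA of this machinery differed between cells that had received IL-1β, itself a product of caspase-1, and cells that had not.

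A probe was called detected on an array when its detection p, the share of negative control probes at least as bright, was under 0.01. Between 26.1% and 27.0% of the 48803 probes were detected per array, and the lowest intensity of a detected probe lay between 190.1 and 234.3. The mean raw intensity was lower on the IL-1β arrays (482 and 449) than on the control arrays (527 and 549), so differences and folds are given after scaling. The label of an epithelial line was met in part: of 8 epithelial markers KRT18, KRT8, KRT19 and CLDN1 were detected, while EPCAM, CDH1, KRT7 and CLDN7 were not detected on any array. Of 10 markers of macrophages and monocytes, 8 were not detected on any array, among them PTPRC, CSF1R, ITGAM and TYROBP. The exceptions were CD68, a lysosomal protein, and CD14, which was just above the limit on 1 array of each group.

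Most of the machinery was below detection in these cells. Of the 19 probes, 4 were detected on all 4 arrays, 2 on 1 array only and 13 on none. The 4 belong to 3 genes, with a pair of probes for CASP1 and 1 each for CASP4 and IL18. AIM2 had 1 probe that passed the limit on 1 array, and the remaining 6 genes, CASP5, PYCARD, NLRP1, NLRP3, NLRC4 and GSDMD, had no probe detected on any array. The 13 probes detected on no array had raw intensities of 142.0 to 186.9 and 141.7 to 184.7 in controls, and of 138.7 to 191.1 and 136.6 to 172.4 with IL-1β. Not being detected sets only an upper limit, near the lowest detected intensity, and does not show that a transcript was absent. PYCARD, CASP5, GSDMD and NLRC4 had 1 probe each and IL18 also had 1, so for these genes no other probe was there to compare.

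**Figure D1:**
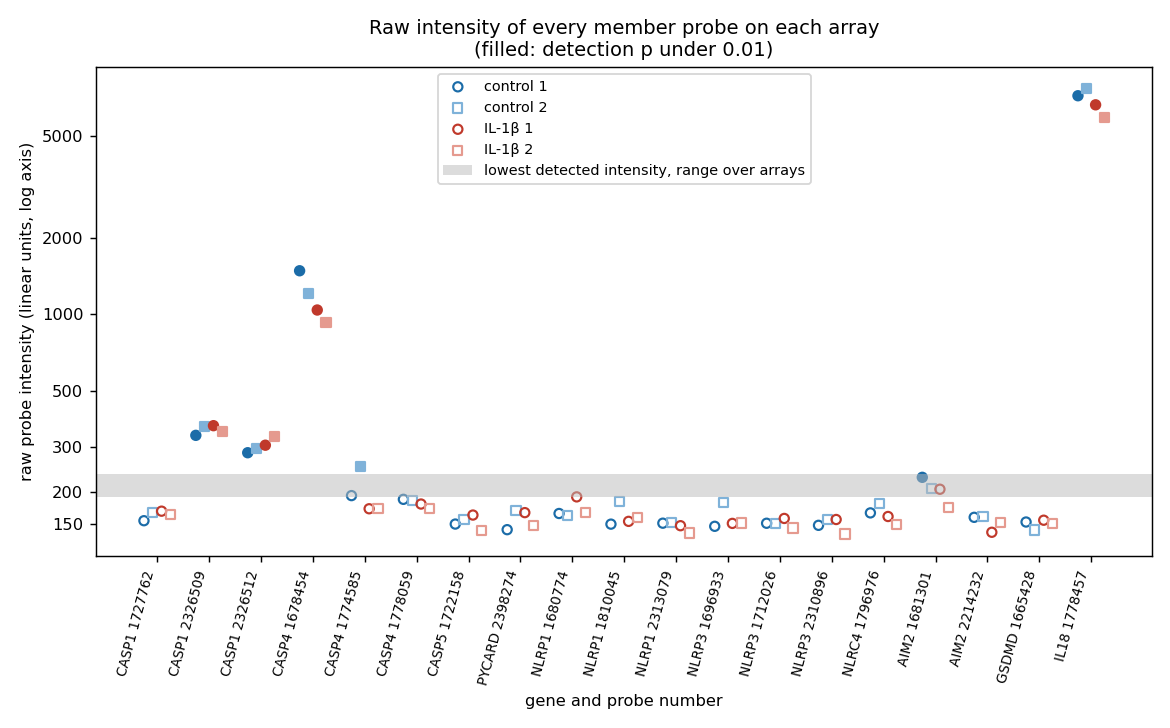
Raw intensity (log axis) of each of the 19 probes on the 4 arrays, with filled symbols where the detection p was under 0.01 and a grey band for the lowest detected intensity of the arrays (190.1 to 234.3). IL18, CASP4 probe ILMN_1678454 and a pair of CASP1 probes stand above the band on all arrays, and 13 probes have open symbols throughout.

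CASP4, CASP5 and CASP1 lie next to each other on chromosome 11, at chr11:104942866-104968574, chr11:104994243-105023168 and chr11:105025443-105036686 of GRCh38.p14. CASP4 and CASP5 are separated by 25668 bases and CASP5 and CASP1 by 2274 bases. The stretches of 250 bases before the start sites of CASP4 and CASP5 are shown because these neighbours are close in sequence, yet CASP4 had a probe detected on all arrays and CASP5 had none. Both are on the minus strand and are written 5′ to 3′ from RefSeq on GRCh38.p14, CASP4 at chr11:104968575-104968824 and CASP5 at chr11:105023169-105023418; capitals mark matches to the motifs named next.
CASP4: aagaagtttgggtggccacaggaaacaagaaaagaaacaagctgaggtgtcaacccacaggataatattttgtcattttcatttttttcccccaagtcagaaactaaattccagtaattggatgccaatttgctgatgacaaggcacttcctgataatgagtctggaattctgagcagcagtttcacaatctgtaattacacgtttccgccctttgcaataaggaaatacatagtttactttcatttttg
CASP5: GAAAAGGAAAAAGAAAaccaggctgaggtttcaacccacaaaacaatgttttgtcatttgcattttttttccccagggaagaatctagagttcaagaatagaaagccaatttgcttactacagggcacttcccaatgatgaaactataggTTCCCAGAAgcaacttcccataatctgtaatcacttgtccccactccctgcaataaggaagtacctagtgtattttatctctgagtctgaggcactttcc
In a global alignment 181 of 226 aligned bases were identical, or 80.1%. Both strands were searched for GAAA followed by any 2 bases and again GAAA (the core of the interferon-stimulated response element), TTCNNNGAA (a STAT site), TGANTCA (an AP-1 site) and the NF-κB site by its usual consensus. CASP5 held 2 overlapping matches to the first, between 250 and 235 bases before the start, and 1 to the second, 100 to 92 bases before it. CASP4 held none of the 4 motifs in this window. AIM2, a gene of chromosome 1, held 1 match to the first motif and 1 to the AP-1 motif, and PYCARD, NLRP3 and NLRC4 held none. Over all 35116 promoters of the table the shares with a match were 3.02%, 6.57%, 6.57% and 5.21% in the same order. A match is a string of letters and not evidence of binding. The table held promoters of 6 of the 10 genes, and CASP1 and IL18 were not among them.

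CASP1, the protease at the centre of the canonical inflammasome, had the largest difference between the groups among the 4 member probes tested. On the log2 scale after background correction and quantile normalization, probe ILMN_2326509 read 7.51 and 7.48 without and 7.90 and 7.97 with IL-1β. Probe ILMN_2326512 read 7.08 and 6.94 in controls, against 7.46 and 7.87 with IL-1β. For each of these probes both IL-1β arrays lay above both control arrays. The first probe was 1.36-fold the control level (95% confidence interval 1.16 to 1.6), a log2 difference of 0.44 ± 0.09 (SE). The second was 1.57-fold the control level (1.19 to 2.07), a difference of 0.65 ± 0.16. Neither passed an adjusted p of 0.05 in limma, with adjusted p = 0.123 for the first and 0.148 for the second.

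These CASP1 probes carry the same transcript accession, NM_033294, so they are repeated readings of 1 RNA and not independent support for each other. The raw intensities of the first overlapped between groups, at 333.6 and 362.6 in controls and 364.1 and 344.6 with IL-1β, so its difference is seen only after the arrays are scaled. Those of the second did not overlap, at 285.0 and 296.1 in controls and 305.1 and 329.2 with IL-1β. In the authors' deposited table of processed values, which are background-subtracted and scaled per array, the first probe stood at 153.5 and 165.0 in controls against 204.5 and 210.4. The second stood at 111.1 and 108.9 against 145.6 and 193.9 there, so in those values both probes were higher on each IL-1β array. The remaining CASP1 probe, ILMN_1727762 for NM_033292, was not detected on any array, with detection p from 0.0843 to 0.581. CARD16, whose protein resembles the CARD of caspase-1 and whose transcripts a CASP1 probe could read, had a pair of probes of its own, detected on no array. The sequences of the array's probes were not used here, so cross-reading between CASP1, CARD16 and the other neighbours was not tested.

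**Figure D2:**
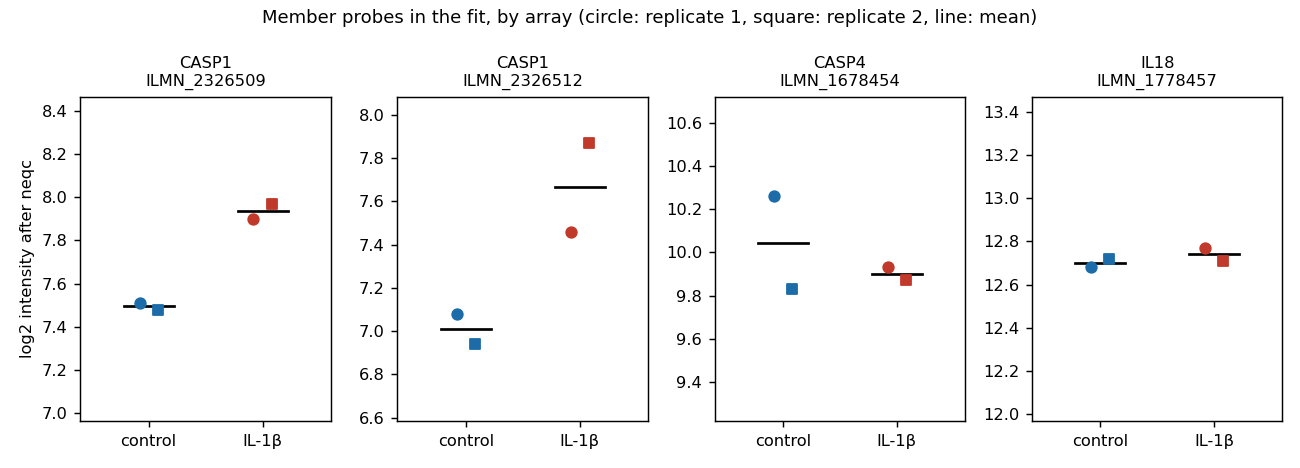
Log2 intensity after neqc of the 4 probes in the fit, for 2 control and 2 IL-1β arrays, with the mean of each group as a line and the same span of 1.5 log2 units on every axis. Both CASP1 probes are higher on each IL-1β array, and the groups overlap for CASP4 and IL18.

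CASP4, a receptor for intracellular lipopolysaccharide and a protease of the non-canonical pathway, was well above background through probe ILMN_1678454. This probe read 10.26 and 9.83 in controls, against 9.93 and 9.87 with IL-1β. Control replicate 1 stood above the rest, and the other control array lay just below both IL-1β arrays, so the groups overlapped. The difference was -0.14 ± 0.16, or 0.906-fold (0.687 to 1.19), with adjusted p = 0.688 in limma. The direction rested on 1 array: without control replicate 1 the difference was 0.073, and without control replicate 2 it was -0.36. With the scaling used here the interval allows neither a 1.5-fold decrease nor a 1.5-fold increase, but it holds smaller differences in either direction. Under the 12 other settings the difference was below 0 in each, from -0.38 with median scaling over all probes to -0.13. Settings that changed only the filter, the variance model or the block kept the same log2 values and could not move it. Before scaling, the raw intensities were 1480.4 and 1203.1 in controls and 1037.6 and 926.7 with IL-1β, without overlap.

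The other CASP4 probes were dim. ILMN_1774585, for transcript NM_001225, had raw intensities of 193.3 and 251.7 in controls and 171.6 and 172.4 with IL-1β, and passed the detection limit on control replicate 2 only. Both IL-1β arrays lay below both control arrays, but since neither was detected, no fold is given. ILMN_1778059 carries the same accession as ILMN_1678454, NM_033306, yet was detected on no array, with raw intensities of 186.9, 184.7, 179.1 and 172.4 in the order control 1, control 2, IL-1β 1 and IL-1β 2. The probes of CASP4 therefore did not give a common reading of the gene. CASP5, the other lipopolysaccharide-binding caspase, had 149.4 and 155.2 in controls and 162.1 and 141.0 with IL-1β on its only probe, with detection p of 0.333 or more on every array.

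IL18, whose precursor is a substrate of caspase-1, was by raw intensity far above the detection limit, and its level was close between the groups. Its probe read 12.68 and 12.72 in controls, against 12.77 and 12.71 with IL-1β, from raw intensities of 7220.6, 7685.0, 6651.0 and 5930.1. The gene lies at chr11:112143260-112164094. The 4 log2 values lay within 0.1 log2 units and the groups overlapped. The difference was 0.04 ± 0.09, or 1.03-fold (0.873 to 1.21), with adjusted p = 0.871 in limma. The interval leaves out a 1.5-fold change in either direction, while a smaller one could not be told from the spread. The sign turned with the scaling, to -0.14 with median scaling over all probes and -0.037 when the scaling factors of the authors' deposited table of averages were used. GSDMD, the pore-forming substrate of caspases 1, 4 and 5, had raw intensities of 152.2 and 141.7 in controls and 154.7 and 150.5 with IL-1β on its only probe, with detection p from 0.39 to 0.986. These lie below the lowest detected intensity of every array.

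PYCARD, the adaptor that links the sensors to caspase-1, had raw intensities of 142.0 and 169.3 in controls and 165.7 and 147.9 with IL-1β, and the groups overlapped. Its detection p was 0.256 or more on each array. In the authors' deposited table of processed values it stood at -13.9, 2.0, 6.5 and -0.5, around 0 in both groups. NLRP3, the sensor of ion fluxes and membrane damage, had 3 probes for NM_004895, with raw intensities of 136.6 to 182.1 over all arrays and detection p of 0.105 or more. After normalization its probe ILMN_1712026 read 4.67 and 4.57 in controls and 4.77 and 4.72 with IL-1β, without overlap but below detection, and its other probes overlapped. NLRC4, which acts with NAIP proteins on bacterial flagellin and secretion systems, read 165.3 and 180.0 in controls and 160.0 and 148.4 with IL-1β, with detection p from 0.126 to 0.468. Neither IL-1β array of NLRC4 reached a control array in raw intensity, but all 4 were below detection.

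Among the sensors the probes nearest to the detection limit were those of NLRP1 and AIM2. NLRP1, a sensor that is activated by proteases and by inhibition of DPP9, had raw intensities of 164.4 and 161.2 in controls and 191.1 and 166.3 with IL-1β on probe ILMN_1680774. Both IL-1β arrays were the higher ones, with detection p of 0.0158 and 0.0527 against 0.219 and 0.618 in controls, so none passed the limit of 0.01. The other NLRP1 probes, ILMN_1810045 and ILMN_2313079, overlapped between the groups on the log2 scale, at differences of -0.03 and -0.01. AIM2, a sensor of cytosolic DNA, read 228.1 and 205.5 in controls and 204.8 and 173.4 with IL-1β on probe ILMN_1681301. Control replicate 1 passed the detection limit with a value of 0.00527, while IL-1β replicate 1 missed it with 0.0105, so this call turns on a small difference. After normalization this probe read 6.37, 5.62, 6.0 and 5.46 in the same order, and the groups overlapped. The other AIM2 probe was detected on no array, with detection p of 0.343 or more.

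Read together with the whole array, no probe of the 10 genes passed the test. Of 13152 probes tested, those detected on at least 2 arrays, 0 (0%) passed an adjusted p of 0.05 in limma, and 0 of the 4 member probes did. At an unadjusted p of 0.05, 2437 probes (18.5%) passed, of which 1217 were higher with IL-1β (9.25% of those tested), and the CASP1 probes were the 2 member probes among them. With limma's trend and robust settings 728 probes passed an adjusted p of 0.05, among them 1 member probe. By size alone, 200 probes (1.52%) were at least 1.5-fold higher with no overlap between groups, among them CASP1 probe ILMN_2326512. Probes with both IL-1β arrays above both control arrays made up 25.5% of all probes tested and were 2 of the 4 member probes, so that ordering is common on these arrays. Of the tested probes 96.3% had a log2 difference at or below that of ILMN_2326509 and 99% one at or below that of ILMN_2326512. For CASP4 and IL18 the shares were 24.7% and 58%. Of the 4 member probes 3 were higher and 1 was lower. Their median log2 difference was 0.24, beside a median of -0.0013 over all tested probes, of which 50.3% were lower. CASP1 enters this median through 2 probes of the same transcript. Keeping only the brightest tested probe of each gene left CASP1 and IL18 above 0 and CASP4 below it. The middle value of these 3 genes was 0.04, which is that of IL18, against 0.0012 for all named genes tested. The other members had no tested probe, so this value does not describe the 10 genes as a set.

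The balance of higher and lower probes depended on the scaling. At an unadjusted p under 0.05, the share of lower probes was 50.1% as reported, 74.4% in the authors' processed values, 72% with the averaged-table factors and 94.3% with median scaling over all probes. The last setting shifted the median difference of tested probes by -0.22. Both CASP1 probes were higher, with no overlap, under each of the 12 other settings of background, scaling, filter and model, by 0.22 to 0.45 for ILMN_2326509 and by 0.33 to 0.65 for ILMN_2326512. The low ends came from median scaling for the first and from the averaged-table factors for the second. Settings that changed only the filter, the variance model or the block kept the same log2 values. Under those settings the difference and the overlap could not change. ILMN_2326512 passed an adjusted p of 0.05 in limma under 3 of the 12 settings, at 0.0414 with no background correction, 0.0318 with the averaged-table factors and 0.0366 with trend and robust settings. Of all tested probes, 4.73%, 8.34% and 5.54% passed under these 3 settings, in the same order. ILMN_2326509 passed under none of the 12 settings, with adjusted p from 0.0691 to 0.471. When any 1 array was left out, both probes remained higher but neither passed, with adjusted p from 0.24 to 0.35 over these fits. The size for ILMN_2326512 leaned on IL-1β replicate 2, since its difference was 0.45 without that array and 0.86 without IL-1β replicate 1. CD68, of the macrophage and monocyte list, was also higher with IL-1β, by 0.31 ± 0.10 (adjusted p = 0.221 in limma). The other tested CD68 probes differed by 0.51 ± 0.11 and 0.16 ± 0.11. The summed normalized intensity of that list was 2688 and 2990 in controls and 3375 and 3447 with IL-1β. Most of this sum was CD68 itself, at 11.21 and 11.37 against 11.57 and 11.62 on the log2 scale. CD14, the only other tested gene of the list, differed by -0.08 ± 0.16. The part of this list in the CASP1 difference was not tested. The 4 detected epithelial genes were all lower, KRT18 by -0.24 ± 0.10 and CLDN1 by -0.33 ± 0.12, with sums over the list of 18230 and 19024 in controls and 16005 and 15467 with IL-1β. Of 7 fibroblast markers COL1A2 alone was detected, with a difference of -0.24 ± 0.10. Of 5 endothelial markers CDH5 was detected on all 4 arrays and PECAM1 on 1 array only, and CDH5 differed by -0.01 ± 0.11.

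**Figure D3:**
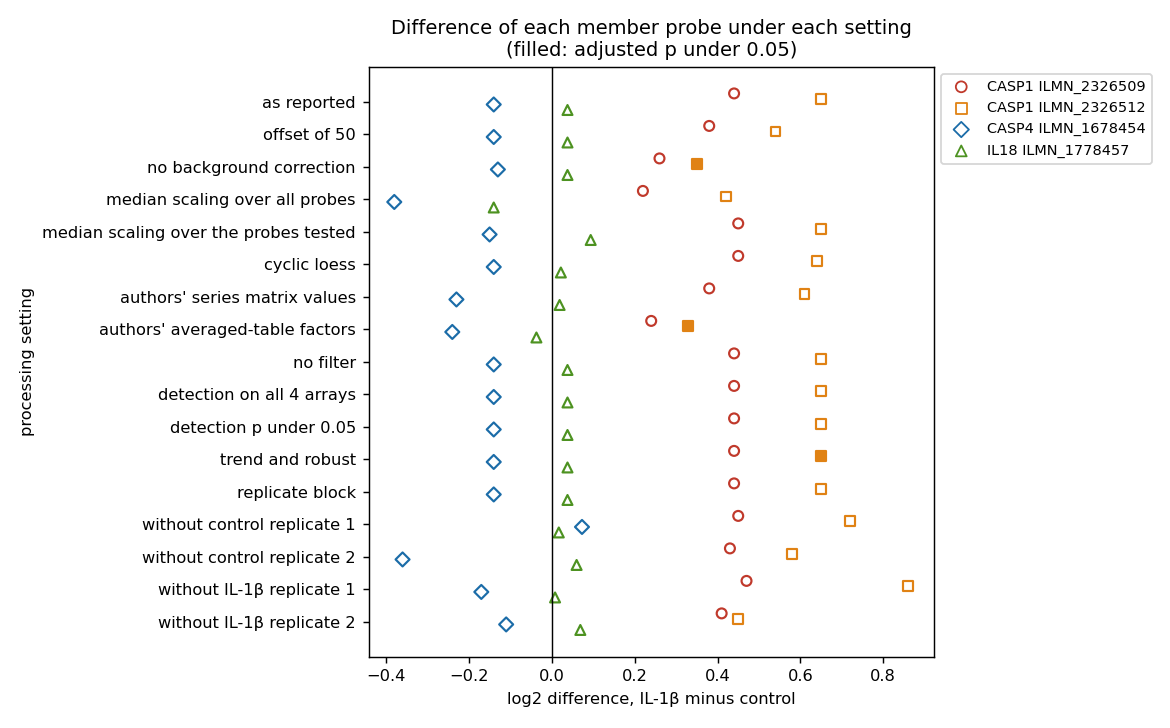
Log2 difference, IL-1β minus control, of the 4 member probes under each processing setting, filled where the adjusted p was under 0.05. Both CASP1 probes lie right of 0 throughout, CASP4 lies left of 0 except without control replicate 1, and IL18 stays within 0.14 of 0.

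The profile of CASP1 probe ILMN_2326512 over the 4 arrays lay nearest to those of SLC43A2, an amino acid transporter, PRDM16, a transcriptional regulator, and CCNJ, a cyclin. The Euclidean distances were 0.112, 0.113 and 0.147 on the centred log2 scale, among 8861 other genes. With 4 arrays such likeness is a description only. None of the 10 genes was among the 1440 genes in the authors' deposited table of scores and none of their probes among the 1464 in the authors' deposited table of averages, tables too small against the array for this to say anything about the members.

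The wider pathway was described through lists of genes, taking for each gene the tested probe of highest mean intensity, and no gene on these lists passed an adjusted p of 0.05. Among 8862 named genes tested, 833 (9.40%) were higher and 741 (8.36%) lower at an unadjusted p of 0.05, with a median log2 difference of 0.0012. Of 20 other NLR, pyrin and DNA sensors and their regulators, 11 were not detected on any array, among them MEFV, NLRP6, NLRP7 and NLRP12. The 6 detected on all 4 arrays were 5 higher and 1 lower (median 0.14), and NOD1 and NLRX1 among them passed an unadjusted p of 0.05. The fit also held NOD2, which passed the detection filter only through the IL-1β arrays, where it was high, and so had to differ. With NOD2 included, the split of 6 to 1 was 3 to 4 with median scaling over all probes, and 4 to 3 both with the averaged-table factors and without control replicate 1. NOD2, a receptor for muramyl dipeptide that signals to NF-κB, read 5.97 and 5.82 in controls and 6.60 and 6.64 with IL-1β. No control array detected its probe, so only a bound is given, at least 1.39-fold higher with IL-1β in the values as normalized here. Its log2 difference ran from 0.25 with no background correction to 0.84 in the authors' processed values. Its p-values are not given, since the filter admitted this probe through the arrays on which it was high. NOD1, its relative, read 7.11 and 7.14 against 7.46 and 7.46, a difference of 0.34 ± 0.09 (adjusted p = 0.17). IFI16, a nuclear DNA sensor, differed by -0.21 ± 0.12, and by -0.33 to -0.093 when 1 array was left out.

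Of 8 gasdermins and membrane rupture genes, 6 were tested, with 5 higher and 1 lower (median 0.07), a split that was 2 to 4 with median scaling. GSDMB, a gasdermin of epithelial cells, had the largest difference of this list, with values of 8.53 and 8.72 in controls and 9.29 and 9.21 with IL-1β. This was 1.54-fold (adjusted p = 0.106 in limma), with no overlap, and its other tested probes differed by 0.51 and 0.28. GSDMB passed an adjusted p of 0.05 under 3 of 12 settings, with the lowest at 0.00299. These were no background correction, the averaged-table factors and trend and robust settings, under which 4.73%, 8.34% and 5.54% of all tested probes passed. GSDME, another pore-forming gasdermin, differed by 0.30 ± 0.12, and by 0.17 without control replicate 2. GSDMA differed by -0.16 ± 0.11, and by -0.26 to -0.055 when 1 array was left out. NINJ1, which ruptures the plasma membrane after pore formation, differed by 0.01 ± 0.09.

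Substrates and receptors of the IL-1 and IL-18 axis were mostly below detection. Of 14 genes 12 were not detected on any array, among them IL1B, IL1A, IL1RAP and IL18R1. IL1R1, the signalling receptor for IL-1β, had raw intensities of 204.5 and 222.6 in controls and 172.4 and 169.2 with IL-1β on its only probe, below the detection limit on each array. IL18BP, a secreted protein that binds IL-18, read 7.86 and 7.82 in controls and 7.68 and 7.52 with IL-1β, a difference of -0.24 ± 0.10 (adjusted p = 0.304 in limma). IL37, an anti-inflammatory relative of IL-1, was detected on 1 array of each group and differed by 0.30 ± 0.42. Of the inhibitors and CARD-only or pyrin-only proteins, 7 had a probe and 2 were tested. SERPINB1, a protease inhibitor that restrains caspase-1, differed by 0.10 ± 0.10, with the sign turned to -0.13 by median scaling and to -0.008 by the averaged-table factors. SERPINB9, an inhibitor of granzyme B, differed by -0.31 ± 0.12, and by -0.17 without control replicate 1.

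Factors that license or assemble NLRP3 were mostly detected. Of 17 with a probe 12 were tested, with 6 higher, 6 lower and none past an unadjusted p of 0.05. With median scaling over all probes this split was 1 to 11. P2RX7, the ATP-gated channel upstream of NLRP3, differed by 0.33 ± 0.16, a value that was 0.18 without control replicate 2 and 0.16 without IL-1β replicate 2. The difference of EIF2AK2, a double-stranded RNA kinase, was 0.17 ± 0.12, with 0.052 to 0.28 when 1 array was left out, and median scaling turned it to -0.042. GBP1, a guanylate-binding protein that coats bacteria, differed by -0.31 ± 0.17, a value that was -0.10 without control replicate 1, -0.19 without IL-1β replicate 1 and -0.52 without control replicate 2. The other tested GBP1 probe differed by -0.18 ± 0.10. SUGT1, a cochaperone of NLR proteins, differed by -0.21 ± 0.09. NEK7, the kinase that bridges NLRP3 subunits, differed by -0.03 ± 0.11. Of 8 tested genes of apoptotic caspases and their partners, 3 were higher and 5 lower (median -0.16), and 1 passed an unadjusted p of 0.05. That was CASP10, an initiator caspase, with values of 6.41 and 6.56 in controls and 5.64 and 6.14 with IL-1β, a difference of -0.59 ± 0.18 (adjusted p = 0.191 in limma). It was detected on both control arrays and on 1 IL-1β array. Leaving out IL-1β replicate 1 gave a difference of -0.35, leaving out the other IL-1β array -0.84, and scaling with the averaged-table factors -0.14. It passed an adjusted p of 0.05 in limma with median scaling over all probes, at 0.0457. Under that setting 919 of 13152 tested probes (6.99%) passed, 861 of them lower, so a lower call was common there. The other CASP10 probe, detected on no array, read 5.31 and 5.45 in controls and 6.02 and 5.74 with IL-1β, in the opposite direction. CASP6, an executioner caspase, differed by -0.39 ± 0.28, which IL-1β replicate 1 alone set, since it was 0.042 without that array. The other tested CASP6 probe differed by -0.19 ± 0.22, with its lowest value, 6.06, on IL-1β replicate 2. CASP8, another initiator caspase, differed by 0.28 ± 0.17. This value was 0.051 without IL-1β replicate 2 and 0.51 without IL-1β replicate 1. The other tested CASP8 probes differed by 0.01 ± 0.13 and -0.27 ± 0.35. CASP2 differed by 0.14 ± 0.10, with 0.064 to 0.21 when 1 array was left out, and median scaling turned it to -0.079. The other tested CASP2 probe differed by -0.01 ± 0.20.

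**Figure D4:**
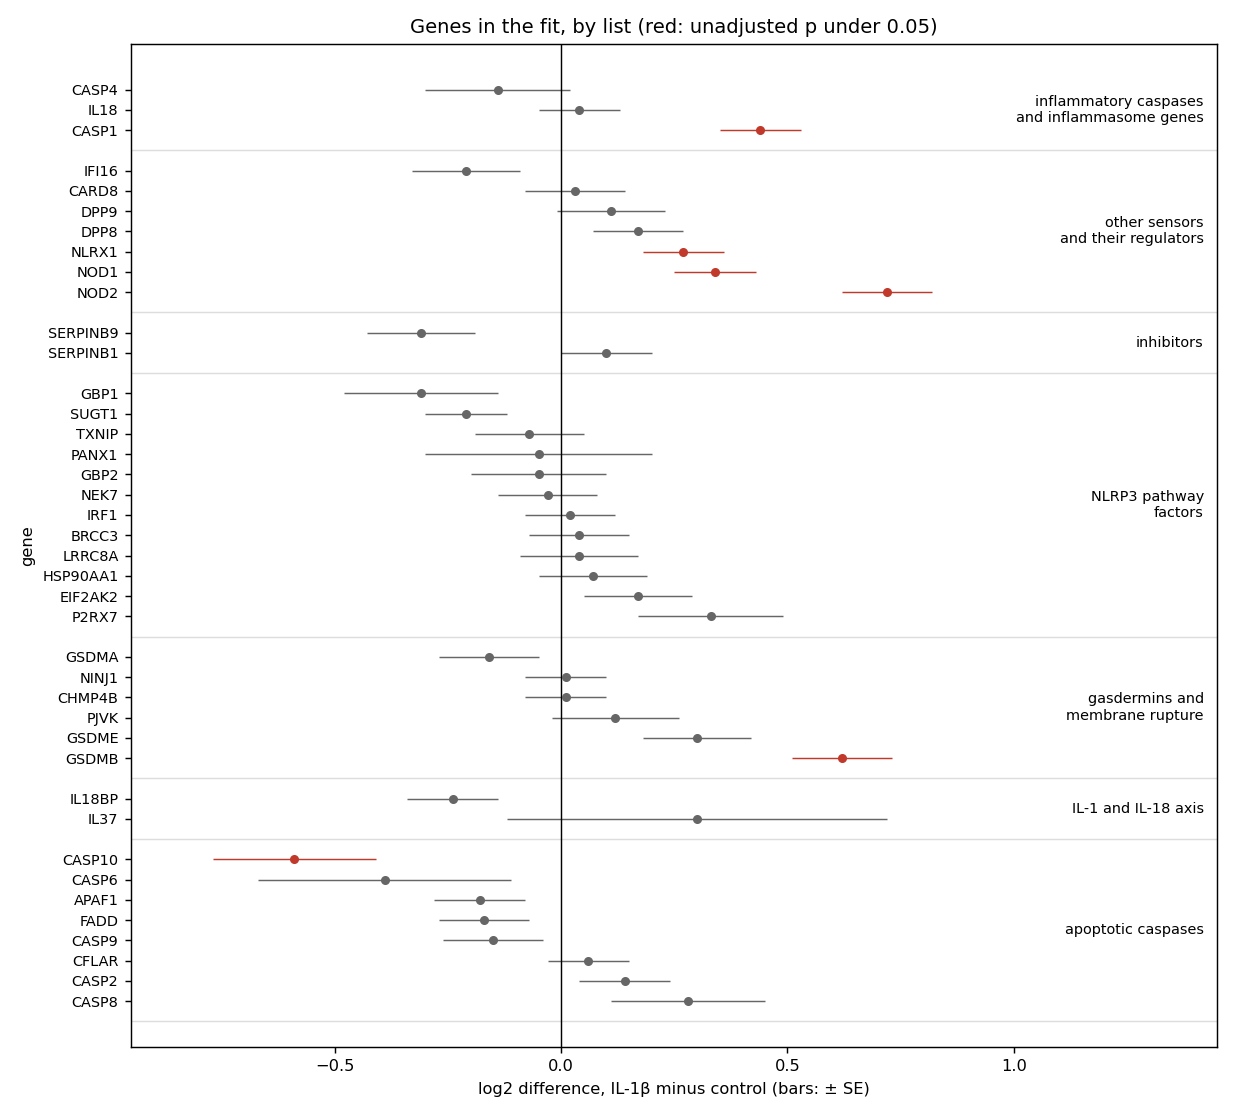
Log2 difference, IL-1β minus control, with its SE for every tested gene of the member list and of the other lists, in red where the unadjusted p was under 0.05. CASP1, NLRX1, NOD1 and GSDMB are red points on the right, and CASP10 is the red point on the left. NOD2 is also drawn in red, but it entered the fit only through the IL-1β arrays, where it was high. Its colour is therefore not to be read as a test result.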

How the data were processed

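RNA from 2 untreated and 2 IL-1β-treated samples was measured on Illumina WG-6 v3 arrays. The raw file deposited by the authors holds linear probe intensity with no background subtraction, and a detection p-value per probe, per the file headers. The values deposited by the authors in the series matrix are intensities less 1 constant per array, times 1 factor (0.843 to 1.07). Those in the authors' deposited table of averages are intensities times 1 factor (0.914 to 1.12), averaged per group. The authors' deposited score has no stated formula and was only searched for the members. The scanner software was not given in the sources.

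Raw intensities were background corrected from the detection p-values (offset 16), quantile normalized and taken to log2 by the neqc function (limma 3.58.1, R 4.3.3). Probes detected (p under 0.01) on 2 or more arrays were fitted with lmFit and eBayes, two-sided, with Benjamini and Hochberg adjustment over 13152 probes. The median SE was 0.111 and the degrees of freedom 5.52. Genes came from GEO's platform annotation (27578 probes with 1 gene, 13 with several, 21212 not listed), with symbols updated by Entrez ID. Named were all members, the 2 largest differences per direction in each pathway list, the 2 brightest tested genes of each marker list and the 3 nearest profiles; any further gene was chosen after its values were seen. The members, lists and tests were chosen with earlier results of these data known. The number of arrays limits the precision. Alternatives changed background, scaling, filter, variance model and block, or left out arrays.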

Additional observations from a re-analysis of the deposited data

How the results depend on the processing

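The count of probes past an adjusted p of 0.05 was 0 as reported and was 91 with an offset of 50, 622 with no background correction, 919 with median scaling over all probes, 10 with median scaling over the probes tested, 1097 with the authors' averaged-table factors, 66 with detection on all 4 arrays and 728 with trend and robust settings. It was 0 with cyclic loess, the authors' series matrix values (floored at 16), no filter, detection p under 0.05 and when any 1 array was left out. The count of member probes past it was 0 as reported and 1 with no background correction, with the averaged-table factors and with trend and robust settings, each time CASP1 probe ILMN_2326512, and 0 when any 1 array was left out. Probes at least 1.5-fold apart with no overlap numbered 401 as reported, 157 with an offset of 50, 50 with no background correction, 873 and 682 with median scaling over all probes and the series matrix values, 66 with the averaged-table factors, 875 with no filter, 222 with detection on all 4 arrays and 744 with detection p under 0.05, and 546 to 595 when 1 array was left out. Signs turned for IL18 (-0.14 with median scaling over all probes, -0.037 with the averaged-table factors), SERPINB1 (-0.13 and -0.008 with the same), EIF2AK2 (-0.042) and CASP2 (-0.079) with median scaling over all probes, and for CD14 (0.016) and CDH5 (0.008) with median scaling over the probes tested and CD14 (0.048) with the averaged-table factors; the cause was not tested. Leaving out 1 array turned the sign of CASP4 (-0.36 to 0.073), IL37 (-0.25 to 0.84), CASP6 (-0.82 to 0.042), CD14 (-0.26 to 0.091) and CDH5 (-0.12 to 0.10). These checks of genes outside the 10 were added after the data were seen. With the replicate number as a block, 0 probes passed, as reported, and CASP1 probe ILMN_2326512 had an adjusted p of 0.234 in limma. Same-numbered samples did not deviate together (r = -0.09 across probes). With 2 pairs, this cannot show whether they shared a culture or a chip. A block for the chip was not run, since no chip is named in the files used here.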
